A study of Homo sapiens with 12 samples.

Results

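The genes of the transforming growth factor beta (TGF-beta) ligands and their latent binding proteins form a group of 7 of the 20136 protein-coding genes examined. They are the ligand genes TGFB1, TGFB2 and TGFB3 and the latent TGF-beta binding protein genes LTBP1, LTBP2, LTBP3 and LTBP4. They were chosen by name, and peaks were collected within 1, 2.5 and 10 kb of the 5′ end of each gene and of each of its annotated transcript starts on GRCh37. The peaks mark H3K4me3, a histone modification of active promoters, and came from BON1, a human pancreatic neuroendocrine tumor line. They were measured by CUT&RUN, in which an antibody directs a nuclease to chromatin and the released fragments are sequenced. Control cells labelled BON1/TGL/pQ, which carry the empty vector, were compared with BON1/TGL/HA-Bcl-xL cells, which overexpress an HA-tagged form of the anti-apoptotic protein Bcl-xL. Both lines were kept in medium with puromycin, and 500000 cells were used per condition. Whether each line is a single clone or a pool is not given in the sources used here. A rabbit anti-mouse IgG served as the background antibody. The libraries were H3K4me3 control replicates 1 to 3, H3K4me3 HA-Bcl-xL replicates 2 and 3, and IgG replicates 1 to 3 of both lines. H3K4me3 HA-Bcl-xL replicate 1 was not analysed here.

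TGF-beta is made as a precursor whose propeptide stays wrapped around the mature growth factor after cleavage and keeps it inactive. An LTBP is bound to this latent complex in the cell and anchors it to fibrillin and fibronectin fibres in the matrix, from which integrins, proteases or thrombospondin release the active ligand. LTBP2 is the family member that does not bind the latent complex. In epithelial cells TGF-beta is known to restrain growth, and in tumors to act on the surrounding stroma as well.

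The H3K4me3 lists held 10247 to 17711 peaks in control and 15497 to 16379 in HA-Bcl-xL libraries. The IgG lists held 1674 to 2113 peaks in control and 244 to 268 in HA-Bcl-xL libraries. The lists give no read totals, so depth was read from the number of fragments at each peak's summit and from the lowest local background, both solved from the deposited fold and p-value. The median H3K4me3 peak held 9 to 12 fragments in control and 10 to 11 in HA-Bcl-xL libraries, and none held fewer than 3. The lowest background was 0.0478 to 0.0705 fragments per base in control and 0.0681 to 0.0692 in HA-Bcl-xL H3K4me3 libraries. Of 6 neuroendocrine marker genes, CHGB and NEUROD1 carried a peak near the 5′ end (within 1 kb) in all 5 H3K4me3 libraries, where 21.3% of all genes did. CHGA, the chromogranin A gene, had one in 1 library, SYP in 2 and INSM1 in none, although INSM1 had one within 2.5 kb of a start in all 5. TPH1, the gene of an enzyme of serotonin synthesis, had one with HA-Bcl-xL in both replicates and in none of the control libraries, a pattern of 0.844% of all genes. The fibroblast, leukocyte and endothelial markers that could be matched, 6 genes, had none there. Within 2.5 kb of a start, COL1A1, a collagen gene of fibroblasts, had one in 1 HA-Bcl-xL library and the other 5 had none. A peak list shows where the mark passed the caller's limit, and fewer cells with the mark cannot be told apart from less of it per cell.

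The 5′ ends of the 7 genes, each taken as the outermost annotated start, were nearly free of H3K4me3 peaks within 1 kb. That depended on the start used. Within 1 kb of any annotated start, 6 of the 7 genes had a peak in at least 1 library, against 56.6% of all genes. TGFB3 had one in all 5 libraries there, where 26.5% of all genes did. Within 1 kb of the 5′ end, 1 of 7 genes had a peak in at least 1 library, against 48.2% of all protein-coding genes. That gene was LTBP1, in HA-Bcl-xL replicate 2 alone. No member had a peak there in all 5 libraries, which 21.3% of all genes did. The control libraries thus held 0, 0 and 0 of the 7 genes and the HA-Bcl-xL libraries 1 and 0. The mean was 0 ± 0 in control (SD, n = 3) and 0.50 ± 0.707 with HA-Bcl-xL (SD, n = 2), while 28.2 to 40.4% of all genes had such a peak in each control library and 36.5 to 38.1% in each HA-Bcl-xL library.

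Wider windows around the 5′ end took in more members. Within 2.5 kb of it, TGFB1, TGFB2, TGFB3 and LTBP1 had a peak in at least 1 library, 4 of 7 against 53.5% of all genes. Only TGFB3 had one in all 5 libraries there, where 25.6% of all genes did. Within 10 kb, LTBP3 joined them, making 5 of 7 against 60.5% of all genes. TGFB1 and TGFB3 had a peak within 10 kb in all 5 libraries, where 29.7% of all genes did. The peak of TGFB1 in control replicate 2 was one at the start of B9D2. Per library, 2, 2 and 2 members had a peak in this window in control, against 4 and 3 with HA-Bcl-xL. The groups did not overlap at this window, and the difference of 1.5 genes was larger than the pooled SD of 0.408, in which the control SD was 0. The share of all genes with such a peak was 38.1 to 51.4% per control library and 47.7 to 49.2% with HA-Bcl-xL, so those shares overlapped. The members' difference came from 3 single-library peaks of 5 to 8 fragments, at TGFB2 and LTBP1 in HA-Bcl-xL replicate 2 and at LTBP3 in replicate 3. Of these, the TGFB2 and LTBP3 peaks had a −log10 q of 3.41 and 3.34. Both are lost when a −log10 q of at least 5 is needed or when lists are cut to equal length. HA-Bcl-xL replicate 3 then keeps only TGFB1 and TGFB3, as the control libraries do, so the groups overlap.

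Peaks were found farther inside the genes. With the window set at 2.5 kb around any annotated start, 6 of the 7 genes had a peak in at least 1 library, where 59.1% of all genes did. TGFB1, TGFB3, LTBP3 and LTBP4 had one in at least 4 of the 5 libraries, a level reached by 38.8% of all genes. TGFB3 alone among the 7 had one in all 5, where the share of all genes was 28.7%. LTBP2 had none in any library. Within 2.5 kb of any start the number of members with a peak was 4, 3 and 3 in control replicates 1 to 3, or 3.33 ± 0.577 (SD, n = 3). HA-Bcl-xL replicate 2 had 6 such genes and replicate 3 had 3, or 4.50 ± 2.12 (SD, n = 2). Of all genes, 37 to 50.6% had such a peak in each control library and 46.5 to 48.3% in each HA-Bcl-xL library. The difference of 1.17 members was smaller than the pooled SD of 1.31, and the groups overlapped. Without HA-Bcl-xL replicate 2 the difference was −0.333 genes, and without HA-Bcl-xL replicate 3 it was 2.67. It was 0.5 when peaks needed a −log10 q of at least 5, and also when the lists were made equally long. At 10 kb of any start all 7 genes had a peak in at least 1 library, where 65.3% of all genes did. For LTBP2 the peaks in that window lay near the starts of other genes. Of the 54 H3K4me3 peaks in the members' spans and the 10 kb on either side, 23 were closer to the start of another protein-coding gene. The windows around any start are not equal in size, because LTBP3 and LTBP4 have 20 and 35 distinct annotated starts and TGFB1 and TGFB2 have 4 each.

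**Figure D1:**
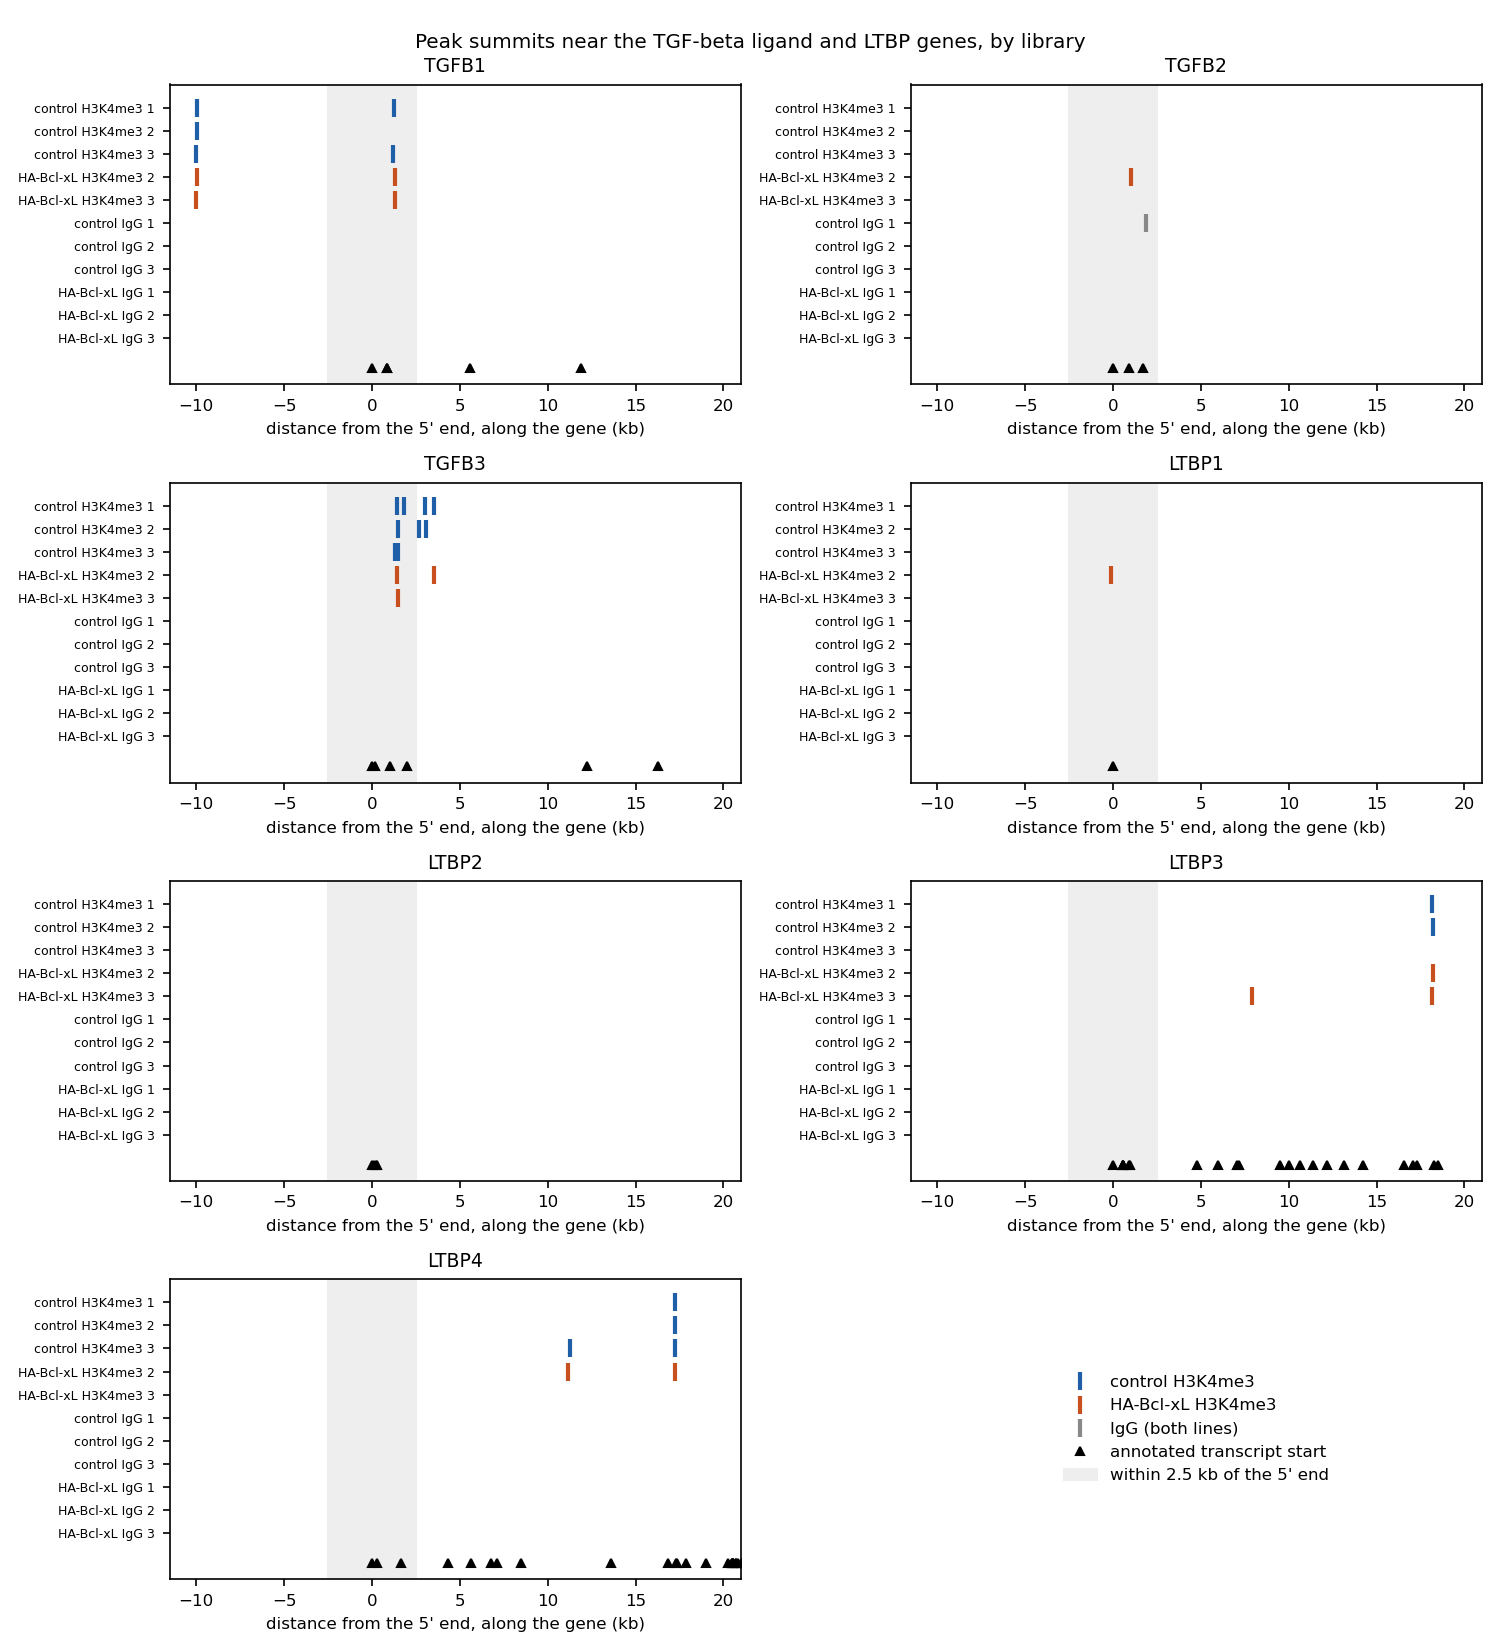
Peak summits (vertical marks) of each library (rows) against the distance from the 5′ end along each gene in kb, with annotated transcript starts as triangles and the stretch within 2.5 kb of the 5′ end shaded; starts and peaks beyond the plotted range are not drawn. TGFB3 has marks in all 5 H3K4me3 rows just inside the gene, the marks of LTBP3 and LTBP4 lie mostly far inside, and LTBP2 has none.

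Within 2.5 kb of an annotated start, TGFB3 carried the most peaks of the ligands. TGFB3 encodes a ligand known for its part in palate fusion and lies on the minus strand of chromosome 14, with its 5′ end at 76449354. Its MANE transcript, the reference transcript agreed between annotation groups, starts 1016 bp inside that end, at 76448338. In every H3K4me3 library a peak lay in the 5′ untranslated part of exon 1, within 1 kb of the MANE start. Control replicate 1 had it at chr14:76447839-76448035, 303 to 499 bp after the MANE start, with 22 fragments at the summit. Control replicate 2 had it at chr14:76447797-76447975 with 18 fragments. Control replicate 3 had it at chr14:76447838-76447919 with 15 fragments. These control peaks overlapped one another. A peak of 276 bp, at chr14:76447807-76448082 with 27 fragments, was found in HA-Bcl-xL replicate 2. HA-Bcl-xL replicate 3 had one of 98 bp at chr14:76447794-76447891 with 16 fragments. The widest and the second narrowest of these 5 peaks were thus the HA-Bcl-xL ones, and the control peaks had widths of 197, 179 and 82 bp.

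Other TGFB3 peaks differed between libraries. Control replicate 1 had a second peak in exon 1, 766 to 855 bp after the MANE start, with 20 fragments. Control replicate 3 had a second one 167 to 295 bp after it, with 11 fragments. In intron 1, a peak at chr14:76446240-76446321 had the same borders in control replicates 1 and 2, with 17 and 19 fragments. Control replicate 3 and both HA-Bcl-xL libraries had no peak there. Control replicate 2 had another at chr14:76446577-76446690, with 19 fragments. Deeper in intron 1, control replicate 1 had a peak at chr14:76445754-76445857 with 25 fragments. Over it lay a peak of HA-Bcl-xL replicate 2 at chr14:76445769-76445900 with 21 fragments. Both intron sites are given on the gene's strand, since they are the TGFB3 peaks found in more than 1 library outside the untranslated region. Capitals mark CpG dinucleotides, of which the first stretch has 4 (GC content 57.3%) and the other has 5 (GC content 59.6%).
TGFB3 intron 1, chr14:76446240-76446321, minus strand: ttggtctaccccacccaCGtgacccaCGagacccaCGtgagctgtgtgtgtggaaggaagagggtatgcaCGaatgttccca
TGFB3 intron 1, chr14:76445769-76445857, minus strand: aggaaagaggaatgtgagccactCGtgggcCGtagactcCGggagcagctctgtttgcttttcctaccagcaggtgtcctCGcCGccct

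The TGFB3 peaks stood on a raised local background. Its 12 peaks had 11 to 27 fragments at the summit, with a median of 19, over a local background of 1.82 to 3.30 fragments per base. Those backgrounds lay between the 97.5th and 98.8th percentile of their own lists. The 17 peaks of the other members within 2.5 kb of a start had 5 to 15 fragments over a background of 0.177 to 0.930. The folds of the TGFB3 peaks, the authors' own values, were 4.24 to 7.18. The exon 1 peak stood at the 56.8th, 51.2nd and 50.3rd percentile by −log10 p of control lists 1 to 3. It stood at the 86.3rd percentile in HA-Bcl-xL replicate 2 and at the 39.0th in replicate 3, on either side of the control ranks. The part of the raised background in these peaks was not tested. No IgG library had a peak within 10 kb of a TGFB3 start.

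**Figure D2:**
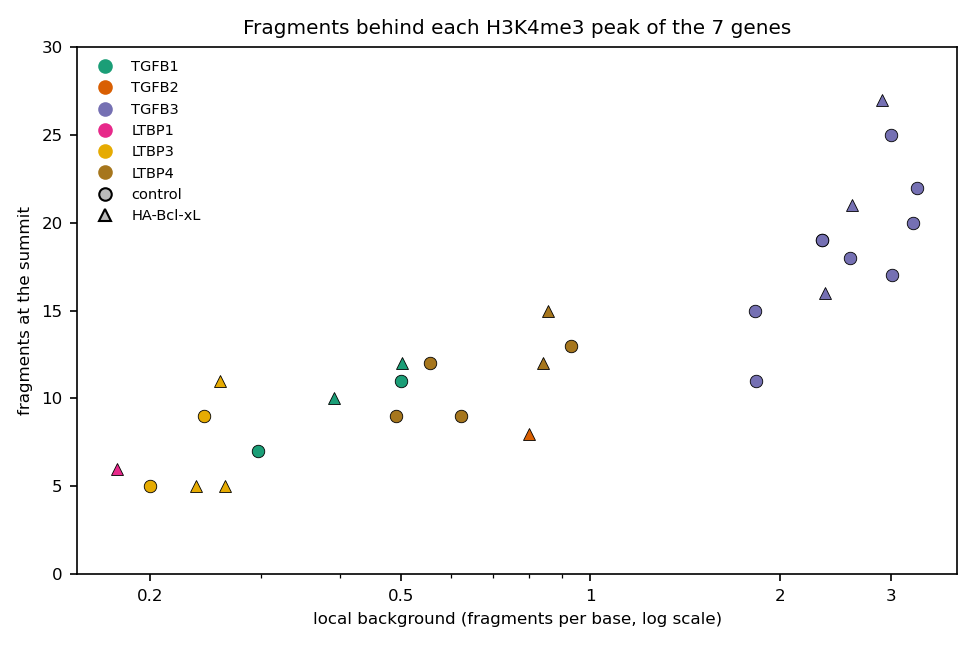
Fragments at the summit against local background (fragments per base, log scale) for the 29 H3K4me3 peaks within 2.5 kb of an annotated start of the members, coloured by gene, circles for control and triangles for HA-Bcl-xL. The 12 TGFB3 peaks lie apart at the right, at a background of 1.82 or more, and 2 of them coincide at 19 fragments.

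TGFB1 encodes the ligand that is most widespread in tissues, and is on the minus strand of chromosome 19, at 41807492 to 41859827. Its peak lay at the boundary of exon 1 and intron 1, past the window of 1 kb, in 4 of the 5 libraries. It was at chr19:41858525-41858613 in control replicate 1, with 11 fragments. Control replicate 2 had no peak there. In control replicate 3 it was at chr19:41858514-41858613, with 7 fragments. HA-Bcl-xL replicate 2 had it at chr19:41858510-41858677, with 10 fragments, and HA-Bcl-xL replicate 3 at chr19:41858510-41858706, with 12 fragments. The side toward the start reached farther in both HA-Bcl-xL libraries. In those libraries 83 and 112 bp of the peak lay in the coding part of exon 1, against 19 bp in each of the control peaks. The nearest start of another protein-coding gene was that of TMEM91, 1368 to 1461 bp away on the opposite strand. The stretch present in all 4 libraries is shown, with its 7 CpG dinucleotides in capitals and a GC content of 76.4%.
TGFB1 exon 1 and intron 1, chr19:41858525-41858613, minus strand: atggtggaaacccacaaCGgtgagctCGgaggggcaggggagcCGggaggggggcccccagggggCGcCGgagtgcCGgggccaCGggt

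Bases under H3K4me3 peaks within 2.5 kb of a TGFB1 start numbered 89, 0 and 100 in control replicates 1 to 3. HA-Bcl-xL replicate 2 had 168 such bases and replicate 3 had 197. Both HA-Bcl-xL values were above every control value. The means were 63.0 ± 54.8 (SD, n = 3) and 182.5 ± 20.5 (SD, n = 2), a difference of 119.5 bp (exact permutation, two-sided p 0.2, taken as the one-sided p doubled). For 3 libraries against 2 no smaller p is possible in this form, so no single gene could pass 0.05 by it. The labels do not say that replicates were separate cultures, so p-values here measure only the spread between these libraries, which may be technical. A second TGFB1 signal, 9866 to 9926 bp upstream, appeared in all 5 libraries. It lay within 28 bp of the start of B9D2, a ciliary protein gene, so it cannot be assigned to TGFB1 by position. Peaks at the start of CCDC97, in all 5 libraries, likewise fell inside a long non-coding TGFB1 transcript, about 43 kb from the 5′ end.

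**Figure D3:**
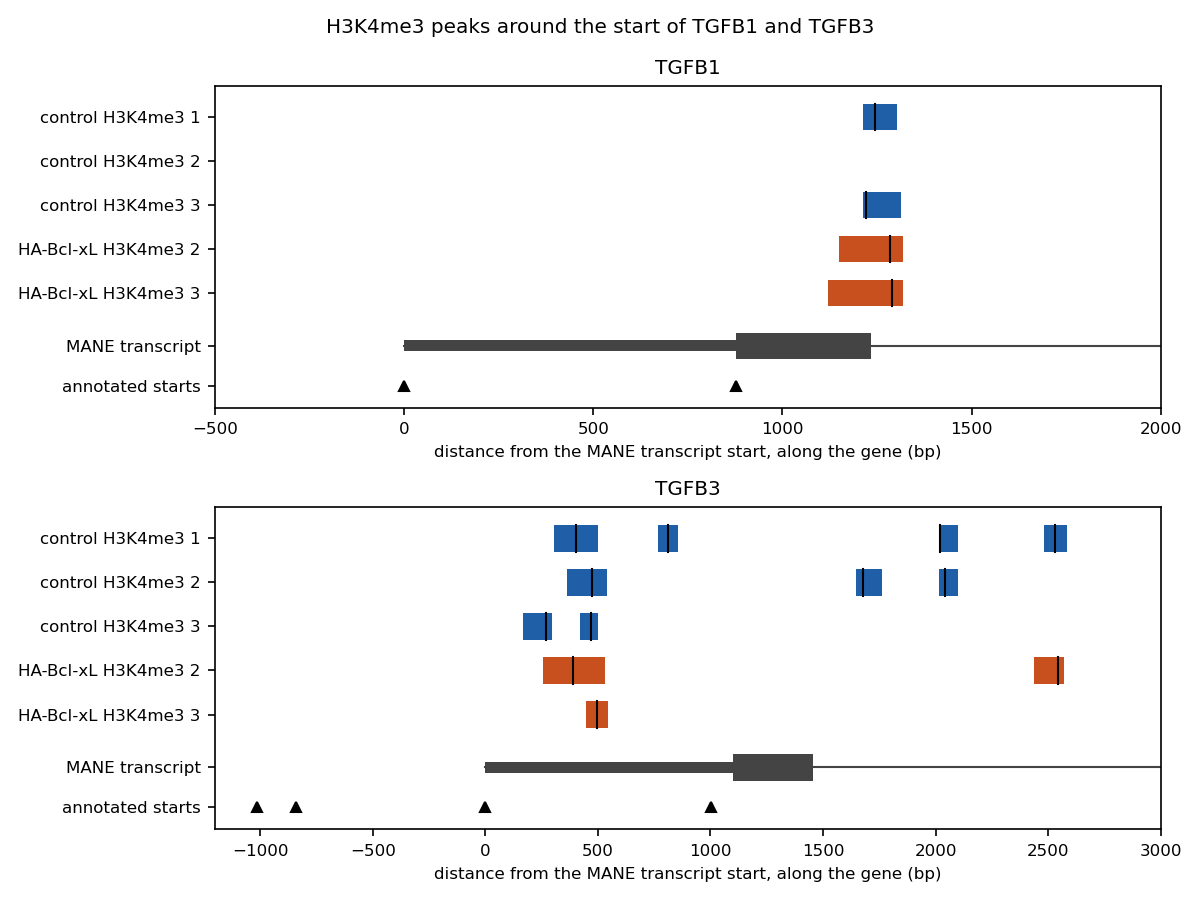
H3K4me3 peaks (bars, summit as a black line) of TGFB1 and TGFB3 in each library against the distance from the MANE transcript start in bp, above the transcript (thick part coding, intermediate part untranslated exon, thin line intron) and the annotated starts. In TGFB1 the HA-Bcl-xL bars reach farther toward the start than the control bars, and in TGFB3 all 5 libraries have a bar in the untranslated part of exon 1.

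TGFB2, which encodes a ligand with roles in heart and eye development, starts at 218518678 on the plus strand of chromosome 1. Its H3K4me3 peak nearest the start was in HA-Bcl-xL replicate 2, at chr1:218519698-218519781. It lay 1020 to 1103 bp after the 5′ end, just outside the window of 1 kb, in untranslated sequence, with 8 fragments and a rank above 14.3% of its list. No control library had a peak within 2.5 kb of a start. A peak of HA-Bcl-xL replicate 3 at chr1:218585990-218586076, in intron 2, had 4 fragments. TGFB2 was also the only member with an IgG peak within 2.5 kb of a start, where 3.88% of all genes had one. The TGFB2 IgG peak, at chr1:218520505-218520586 in control IgG replicate 1, lay in intron 1 and held 3 fragments. It did not overlap the H3K4me3 peak.

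Among the binding proteins, LTBP1, which anchors latent TGF-beta in the matrix, was the single member with a peak directly before its start. The gene starts at 33172020 on the plus strand of chromosome 2. The peak, at chr2:33171863-33171948 in HA-Bcl-xL replicate 2, ended 72 bp before the start and held 6 fragments over a background of 0.177 fragments per base. It stood at the 38.4th percentile of its list. The other 4 H3K4me3 libraries had no peak within 10 kb of an LTBP1 start. The stretch is shown because it is the one peak of the group within 1 kb of a gene's 5′ end. It holds 10 CpG dinucleotides, in capitals, with a GC content of 66.3% and a ratio of observed to expected CpG of 1.06.
LTBP1 before the start, chr2:33171863-33171948, plus strand: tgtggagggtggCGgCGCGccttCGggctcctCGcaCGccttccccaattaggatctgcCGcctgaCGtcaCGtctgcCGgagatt

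An IgG peak of control replicate 3 inside LTBP1, at chr2:33355553-33355639 in intron 4, held 3 fragments. With TGFB2 it made 2 members with an IgG peak within 10 kb of a start, where 9.06% of all genes had one. LTBP2, on the minus strand of chromosome 14 with its 5′ end at 75079081, had no peak of either antibody within 2.5 kb of a start. A peak of control replicate 1 at chr14:75045927-75046013, in intron 3, held 3 fragments, the fewest found in an H3K4me3 list. Peaks at the starts of NPC2 and ISCA2, between 74959380 and 74960923, came within 10 kb of an internal LTBP2 start in control replicate 1 and both HA-Bcl-xL replicates. They lie within 484 bp of those genes' own starts.

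LTBP3, which encodes a binding protein needed for normal tooth and bone growth, has its 5′ end at 65326401 on the minus strand of chromosome 11. It had no peak within 2.5 kb of that end. Its recurrent peak was in intron 21 of the MANE transcript, about 18 kb inside the gene and next to internal transcript starts. Control replicate 1 had it at chr11:65308188-65308294, with 5 fragments. Control replicate 2 had it at chr11:65308140-65308258, with 9. Control replicate 3 had none. HA-Bcl-xL replicate 2 had it at chr11:65308107-65308240, with 11 fragments, and replicate 3 at chr11:65308122-65308240, with 5. The range of 5 to 9 fragments in control thus lay inside the HA-Bcl-xL range.

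LTBP4, which encodes a binding protein required for elastic fibre assembly, starts at 41098789 on the plus strand of chromosome 19, and its MANE transcript starts 8486 bp further in. Its recurrent peak was in intron 11 of that transcript, beside internal starts that include those of retained-intron transcripts. Control replicate 1 had it at chr19:41115980-41116104, with 13 fragments. Control replicate 2 had it at chr19:41115956-41116104, with 12. Control replicate 3 had it at chr19:41116020-41116108, with 9. HA-Bcl-xL replicate 2 had it at chr19:41116019-41116104, with 15 fragments, and replicate 3 had none. A second LTBP4 peak, in intron 1, was shared by control replicate 3, at chr19:41109969-41110050 with 9 fragments, and HA-Bcl-xL replicate 2, at chr19:41109887-41110050 with 12. Neither LTBP3 nor LTBP4 had an IgG peak within 10 kb of a start.

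The recurrent intron peaks of LTBP3 and LTBP4 are shown as the stretch covered in all 4 libraries that had them, on each gene's strand with CpG dinucleotides in capitals. The GC content is 79.2% in LTBP3 and 72.9% in LTBP4, with 5 CpG dinucleotides in each.
LTBP3 intron 21, chr11:65308188-65308240, minus strand: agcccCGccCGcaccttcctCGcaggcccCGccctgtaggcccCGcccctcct
LTBP4 intron 11, chr19:41116020-41116104, plus strand: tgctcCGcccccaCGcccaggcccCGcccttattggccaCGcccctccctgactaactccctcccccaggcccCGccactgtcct
Both hold GGGCGG, the GC box, read on either strand, 3 times in LTBP3 and 2 times in LTBP4. The farther TGFB3 intron stretch holds it 1 time, and those of TGFB1, LTBP1 and the nearer TGFB3 site do not. The share of all H3K4me3 peaks, or of equally GC-rich stretches, that hold GGGCGG was not counted. The LTBP3 and LTBP4 stretches also share a run of 13 bases, caggccccgccct, which was noticed after the sequences were seen and occurs in 0.0916 to 0.140% of the peaks of each H3K4me3 list. A match of letters describes the stretch and does not show that a factor is bound.

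Bases under peaks within 2.5 kb of any start put the members side by side. TGFB3 had 473, 375 and 211 bp in control replicates 1 to 3, while HA-Bcl-xL replicate 2 had 408 bp and replicate 3 had 98 bp. HA-Bcl-xL replicate 2 thus fell inside the range of the control libraries, and replicate 3 fell below it. The means were 353 ± 132 bp in control (SD, n = 3) and 253 ± 219 bp with HA-Bcl-xL (SD, n = 2), with an exact permutation p of 0.6. For LTBP3 the control libraries had 107, 119 and 0 bp, against 134 bp and 219 bp with HA-Bcl-xL. Its groups did not overlap, but 100 bp of the last value came from a separate peak at chr11:65318515-65318614, in intron 11, with 5 fragments. The LTBP3 difference was 101 bp, with an exact permutation p of 0.2. LTBP4 had 125, 149 and 171 bp in control, against 250 bp and 0 bp with HA-Bcl-xL, so the groups overlapped (exact permutation p of 0.8). TGFB2 had 84 bp and LTBP1 86 bp in HA-Bcl-xL replicate 2 and 0 in the other libraries.

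**Figure D4:**
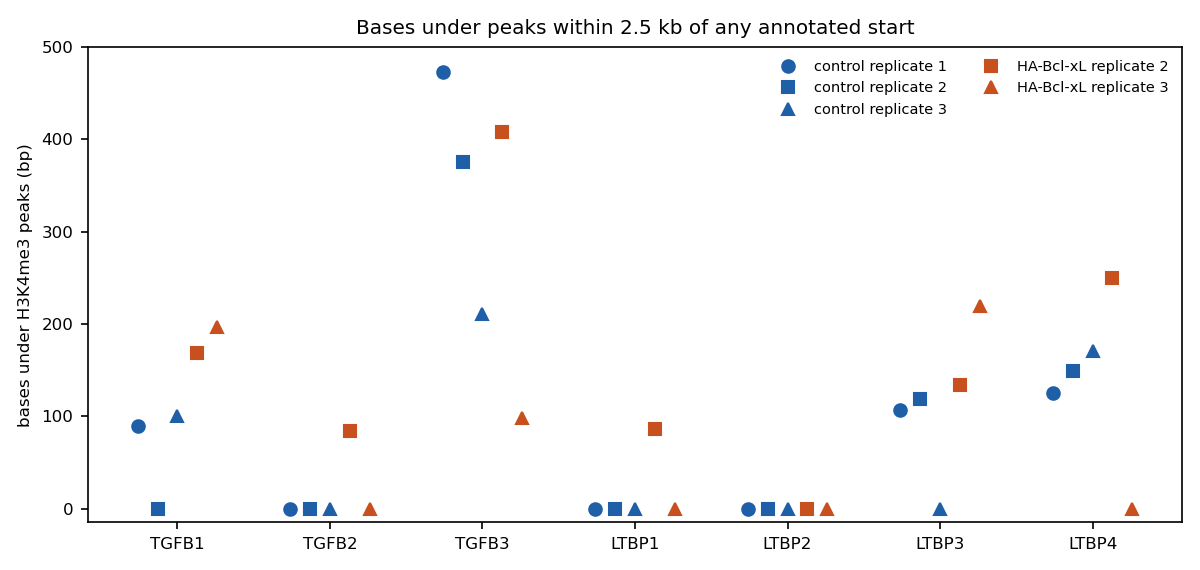
Bases under H3K4me3 peaks within 2.5 kb of any annotated start, in bp, for each member, with 1 point for each of the 3 control (blue) and 2 HA-Bcl-xL (orange) libraries. TGFB3 has the highest point in control replicate 1 (473 bp), and the HA-Bcl-xL points lie above all control points in TGFB1 and LTBP3 only.

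More bases in both HA-Bcl-xL libraries than in every control library were thus found for 2 of the 7 genes, TGFB1 and LTBP3, where 5.56% of all genes met this rule, which was added after the values were seen. The opposite order was found for no member, where 2.29% of all genes showed it. With the window at 1 kb of any start, it was found for LTBP4, where 2.13% of all genes showed it. LTBP4 then had 125, 149 and 89 bp in control, against 86 bp and 0 bp with HA-Bcl-xL, so the order rested on 89 against 86 bp. LTBP3 lost its separation when peaks needed a −log10 q of at least 5 or when lists were made equally long, because HA-Bcl-xL replicate 3 then had 0 bp. TGFB1 kept the same values under both. Within 1 kb of the 5′ end, a peak that both HA-Bcl-xL libraries had and every control library lacked was found for none of the 7 genes, and for 0.844% of all genes. The reverse, a peak of all 3 control libraries that both HA-Bcl-xL libraries lacked, was also found for none of the 7, and for 0.248% of all genes.

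Across the 5779 genes with peak bases in all 5 libraries, limma on log2 bases called 0 genes at an adjusted p of 0.05 (0.0%), with 276 genes at an unadjusted p under 0.05. Without HA-Bcl-xL replicate 3 it called 3 genes, none of them a member. TGFB3 was the only member with bases in all 5. Its log2 difference, HA-Bcl-xL minus control, was −0.85 (SE 0.513), with a Benjamini-Hochberg adjusted p of 0.997. Without HA-Bcl-xL replicate 3 the difference was 0.12, so its direction rested on that library. In simulated data of the same design, 41% of 200 genes changed by 2 on the log2 scale were recovered and 0% of those changed by 1. With 100 bases added to each value, all 6 members with a peak could be fitted, and all had a limma adjusted p of 0.948. The log2 differences were 0.72 for TGFB1, 0.30 for TGFB2, −0.61 for TGFB3, 0.31 for LTBP1, 0.59 for LTBP3 and −0.54 for LTBP4. The added bases understate the change of genes with little coverage.

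The order of the members by their best-ranked peak within 2.5 kb of a start changed from library to library. TGFB3 led in control replicates 1 and 3 and in HA-Bcl-xL replicate 2, LTBP4 led in control replicate 2, and TGFB1 led in HA-Bcl-xL replicate 3. Ranks of lists of different length do not show a change in the mark. The genes whose bases were most like those of TGFB3 over the 5 libraries, by Euclidean distance in log2 bases, were CTBP2 at 0.440 and FAM133B at 0.554. CTBP2 had 446, 363 and 218 bp in control, against 312 bp and 111 bp with HA-Bcl-xL. In CTBP2 as in TGFB3, control replicate 1 was highest and HA-Bcl-xL replicate 3 lowest. This likeness comes from the choice, since CTBP2 was picked by its distance over these same values.

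The sequence around the 5′ ends varied widely among the members. Within 500 bp of the 5′ end the GC content was 72.1% in TGFB1, 52.6% in TGFB2, 57.4% in TGFB3, 70.0% in LTBP1, 72.9% in LTBP2, 66.6% in LTBP3 and 46.5% in LTBP4. At the MANE starts it was 73.7% in LTBP3 and 68.7% in LTBP4. TGFB1 and LTBP2 fell in decile 10 of all genes by GC content, the highest, where 53.9% of genes had a peak in the window of 1 kb in at least 1 library and 11.7% in all 5. For TGFB3, in decile 5, these shares were 58.7% and 33.2%. They were 62.9% and 19.7% in decile 9, that of LTBP1, and 65.1% and 26.6% in decile 8, that of LTBP3. In decile 3, that of TGFB2, they were 38.6% and 20.6%, and in decile 2, that of LTBP4, 18.2% and 9.0%. In the RefSeq promoters of GRCh38.p14, which hold 250 bases before and 50 after each start, all 7 members were matched and motifs were searched on both strands. GGGCGG was found in TGFB1, LTBP2, LTBP3 and LTBP4 and in 45.0% of 35116 promoters. CAGACA, which contains the SMAD element CAGA, was found in TGFB2 and LTBP4 and in 16.9% of promoters. TATAAA was found in TGFB2 and in 11.5%, and CACCTG in LTBP3 and in 20.6%. GTCTAGAC (0.202% of promoters) and TGANTCA (7.71%) were found in no member.

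Other genes of the pathway were counted from a list of 30. Inside 1 kb of the 5′ end, 3 of the 30 (10.0%) had a peak in all 5 libraries, where 21.3% of all genes did. They were ITGAV and ITGB8, subunits of integrins that activate latent TGF-beta, and THBS1, the gene of the activator thrombospondin-1. All were among the 13 genes of processing and activation. None of the 8 matrix and surface carriers, 5 receptors or 4 intracellular transducers had a peak in all 5 libraries. TGFBR2, the type II receptor to which the ligands bind, likewise had one in each HA-Bcl-xL library and in none of the control libraries, a pattern of 0.844% of all genes. Within 2.5 kb of any start TGFBR2 had a peak in all 5 libraries, as did ITGB1, so its separation depended on the window. At that window 5 of the 30 (16.7%) had a peak in all 5 libraries, where 28.7% of all genes did, and 11 had none. None of the 30 separated the lines at that window, where 0.909% of all genes had a peak with HA-Bcl-xL only and 0.248% in control only.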

How the data were processed

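CUT&RUN peak lists of 11 libraries were used, one list per library. Per the submitters' processing notes, bcl2fastq 2.20, Trimmomatic 0.36, Bowtie2 2.2.9, MACS2 2.1.1, deepTools 3.5.1 and hg19 were used. The lists have no header, and duplicate handling and the control of the peak caller are not given in the sources used here. Each deposited peak has a score, a fold ratio over background, a −log10 p-value and a −log10 q-value, all made by the authors, and these were used within a list to rank, filter or describe peaks and to solve fragment numbers. Peaks of a library touching a window by 1 bp were counted.

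Genes and transcript starts came from GENCODE release 44 on GRCh37, and coordinates are 1-based. The whole number of fragments n at a summit was solved from the fold, taken as (n + 1) / (background + 1), and a Poisson p. All H3K4me3 and IgG peaks with a −log10 p under 100 were solved within 0.001, and whether n counts fragments or reads is not recorded. These numbers cover counting error only, since PCR copies are not independent molecules. Log2 bases under peaks were fitted with limma 3.58.1 in R 4.3.3, each library centred on its median. Single genes were compared by exact permutation with Python 3.11.15. The fragment numbers and the limma step were tested on simulated data.

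The members, the gene lists and the rules were chosen with earlier results of these data known. All 7 members are named. Pathway genes are named where a peak within 1 kb of the 5′ end was in all 5 libraries or in all libraries of one line only, and ITGB1 was named after its values were seen. The other named genes are the nearest starts, the markers and the 2 genes most like TGFB3. Alternatives were other windows, lists cut to the length of the shortest, a stricter limit (−log10 q of at least 5), removal of peaks overlapping IgG peaks, summits in place of whole peaks, other centring, no filter, the replicate number as a block, and each library left out in turn.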

Additional observations from a re-analysis of the deposited data

How the results depend on the processing

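The difference in members with a peak within 1 kb of the 5′ end, 0.50 genes, was 1.33 at 2.5 kb, 1.5 at 10 kb and 1.17 at 1 kb of any start, and 0 to 1 with a library left out. Within 2.5 kb of any start, the difference of 1.17 genes ranged from −0.333 without HA-Bcl-xL replicate 2 to 2.67 without HA-Bcl-xL replicate 3, so its direction rested on replicate 2. It was 0.5 with a −log10 q of at least 5 or equal list lengths. Members with a promoter peak in one line only numbered 0 to 1 with a library left out, the 1 being LTBP1 without HA-Bcl-xL replicate 3. Genes called by limma numbered 0 to 3 with a library left out. The 3 calls came without HA-Bcl-xL replicate 3, where the lone HA-Bcl-xL sample is assumed to vary like the others. They were PRR14, GNRH2 and ENSG00000288570, none of them a member and all named after their values were seen. The TGFB3 difference ranged from −1.83 to 0.12, the latter without HA-Bcl-xL replicate 3, and its limma adjusted p from 0.547 to 1 over all alternatives. With a replicate block it was −0.83, with a limma adjusted p of 0.887 and 0 genes called. The labels do not say whether equal replicate numbers mark paired samples. The difference of replicate 2 minus replicate 3 correlated between the lines at 0.0215 across 5779 genes, which are not independent replicates. A single contrast cannot decide whether the samples were paired. Peaks of 3 to 5 fragments are near the least that the lists hold, and a missing peak there shows only that the caller's limit was not reached.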
